A study of Mus musculus with 2 samples.

Results

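The subunits of oxidative phosphorylation (OXPHOS) were examined in single cells of the mouse knee joint, comparing the subunits encoded in the mitochondrial genome with those encoded in the nucleus. Members were chosen by name alone, as gene columns starting with mt-Nd, mt-Co, mt-Cyb, mt-Atp, Nduf, Uqcr, Atp5, Cox4 to Cox8 or Sdha to Sdhd, leaving out 1 pseudogene name. That rule matched 105 of 32245 gene columns, and mt-Cytb, which the prefix mt-Cyb misses by its spelling, was added to make 106. Of these, 13 were encoded in the mitochondrial genome (mt-encoded), 85 were nuclear structural subunits and 8 were nuclear assembly factors of complex I (Ndufaf genes). By complex, with both genomes counted, 43 subunits belonged to complex I, 4 to complex II, 9 to complex III, 23 to complex IV and 19 to complex V.

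OXPHOS is the process by which mitochondria turn the electrons of nutrients into ATP. Complex I (NADH dehydrogenase) and complex II (succinate dehydrogenase) take up electrons, complex III (cytochrome bc1) and complex IV (cytochrome c oxidase) pass them on to oxygen, and complex V (ATP synthase) uses the resulting proton gradient. Complexes I, III, IV and V are built from subunits of both genomes, whereas every subunit of complex II is nuclear. Cartilage has few or no blood vessels, and chondrocytes are known for meeting much of their energy need by glycolysis. The share of mitochondrial RNA in a cell is also a common measure of cell quality in single-cell data, because cytoplasmic RNA can leak from a damaged cell while RNA inside mitochondria is kept.

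The cells came from dissociated knee joints of female mice aged 1 month, with 1 library per genotype, each a pool of several mice. The control library is labelled Stat3fl/fl, in which both Stat3 alleles carry loxP sites and no Cre is named. The mutant library is labelled Acan-Cre+/Cre;Stat3fl/fl, with the same floxed alleles and Cre driven from Acan, the gene of the cartilage proteoglycan aggrecan. The study's methods describe this driver as inducible by tamoxifen soon after birth, and live cells without the endothelial marker CD31, the red cell marker Ter119 and the white cell marker CD45 were sorted for droplet 3′ sequencing. Pooled mice give no spread between animals, so no difference between genotypes below has a replicate check and no test was made. Intervals on shares are exact (Clopper-Pearson) 95% binomial intervals, and they cover counting error only.

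Sequencing gave 4903 control cells at a median depth of 4344 estimated UMIs (unique molecular identifiers, 1 per captured RNA molecule) and 1340 mutant cells at 3743. Only 2 cell barcodes were shared. Cells with both Sox9 and Col2a1 above 0 (Sox9+Col2a1+ cells) numbered 1013 in the control and 335 in the mutant, and their median depth was 4975 and 8521 UMIs. The deposited tables mark a smaller set for the study's own chondrocyte analysis, 501 control and 332 mutant cells, and these were exactly the Sox9+Col2a1+ cells without a globin UMI. In all 1013 control and 335 mutant Sox9+Col2a1+ cells, Stat3 was at 147 and 108 CPM (UMIs per 1000000 non-mitochondrial UMIs). A globin UMI was found in 50.5% of the control and 0.896% of the mutant Sox9+Col2a1+ cells, so red cell RNA was unequal between the libraries. Cells were also placed in classes by counting markers, and 6 classes with at least 20 cells in each library were compared besides the erythroid-like cells. All 8 markers of each of these classes were above 0 in at least 10% of its cells in both libraries. The erythroid-like class differed most in size, with 1734 control cells against 24 mutant cells, although the sort was meant to remove red cells. Of those 24 cells, 16 had the minimum of 3 markers, so the mutant erythroid-like group is weakly defined and is left out of comparisons unless it is named.

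Short stretches near the start sites of nuclear members are shown because many of these genes are known to carry binding sequences for the transcription factor NRF1. The core, GCGC followed by any base, T and a further GCGC, was searched on both strands from 250 bases before to 50 after each RefSeq start. It was present in 17 of the 68 nuclear subunits with a window (25%), against 5.19% of 27025 genes. The stretches below run 5′ to 3′ on the gene's strand of GRCm38.p6, with the core and its reverse complement in capitals, for members described further on.
Cox6a1, chr5:115349101-115349130, minus strand, upstream of the gene: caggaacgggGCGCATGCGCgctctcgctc
Sdha, chr13:74350319-74350348, minus strand, upstream of the gene: cgtttacaggGCGCAGGCGCaccaccactc
Ndufs6, chr13:73328479-73328508, minus strand, over an annotated exon: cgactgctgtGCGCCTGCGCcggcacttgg
Uqcrc1, chr9:108936643-108936672, plus strand, over an annotated exon: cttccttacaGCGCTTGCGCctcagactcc
Atp5g2, chr15:102671070-102671099, minus strand, over an annotated exon: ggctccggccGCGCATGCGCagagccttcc
Each match describes letters in a window and was not tested as a binding site. The 5 genes shown include members that were lower in the mutant Sox9+Col2a1+ cells (Uqcrc1, Ndufs6, Cox6a1), 1 that was higher (Atp5g2) and 1 that was close to level (Sdha).

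The cell classes differed in their nuclear OXPHOS level before genotype was considered. In the control library, nuclear subunits made up 1.29% of the non-mitochondrial UMIs of chondrocyte-like cells, 1.31% in fibroblast-like, 1.33% in marrow stromal-like, 1.35% in osteoblast-like and 1.48% in tenocyte-like cells. The level was 2.02% in mural-like cells, which are the contractile cells of vessel walls, 2.33% in 22 muscle-like cells and 3.09% in erythroid-like cells. The mutant library gave 1.38% in chondrocyte-like, 1.40% in osteoblast-like, 1.5% in fibroblast-like, 1.65% in marrow stromal-like, 1.88% in tenocyte-like and 2.38% in mural-like cells. Mural-like cells were therefore the highest of the 6 classes in both libraries and chondrocyte-like cells the lowest.

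The mt-encoded level did not follow the same order. The number of mt-encoded UMIs per nuclear subunit UMI in the control was 1.01 in erythroid-like cells, 1.75 in marrow stromal-like, 1.94 in mural-like, 2.17 in both fibroblast-like and tenocyte-like, 2.18 in chondrocyte-like and 2.39 in osteoblast-like cells. This ratio is free of the total used for scaling. The class with the highest nuclear level, the erythroid-like cells, thus had the lowest of these ratios. Mt-encoded RNA made up 3.04% of all UMIs in those cells and 2.73% in chondrocyte-like cells, a much smaller gap than that in the nuclear subunits.

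**Figure D1:**
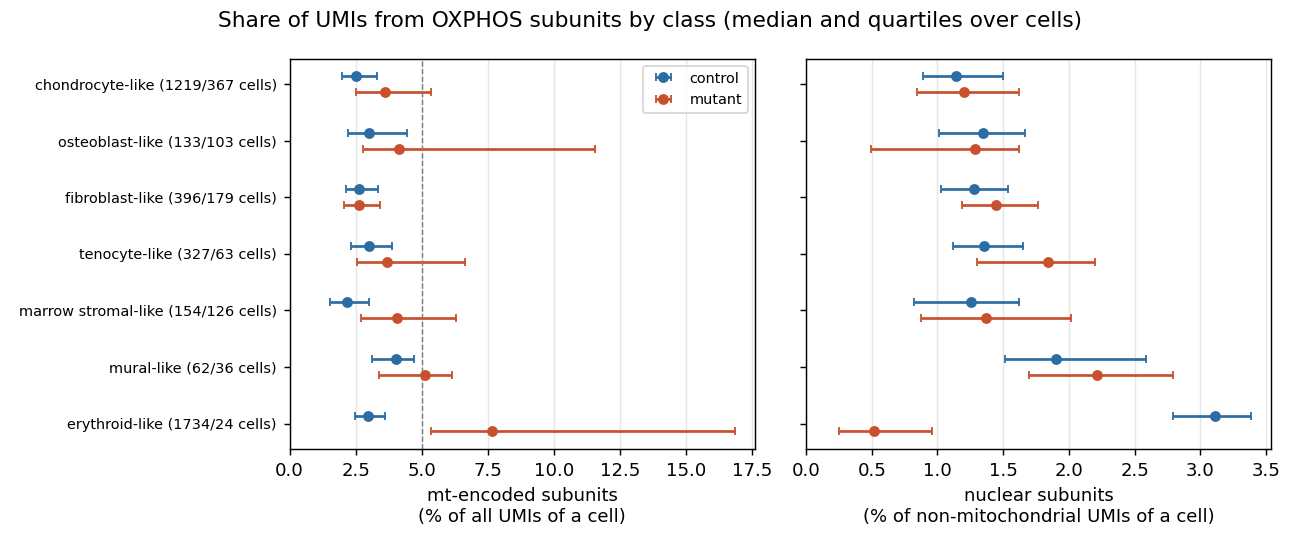
Share of UMIs per cell from mt-encoded subunits (left, percent of all UMIs, dashed line at 5%) and nuclear subunits (right, percent of non-mitochondrial UMIs), with 1 row per class and the number of control and mutant cells beside it. Points are medians over cells and bars run from the lower to the upper quartile. The mutant median of mt-encoded RNA lies to the right of the control in each class, with almost no gap in the fibroblast-like cells (2.61% and 2.62%), while the quartile ranges of the nuclear subunits overlap in each class except the erythroid-like cells.

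The difference between erythroid-like cells and the rest ran through most nuclear subunits. In the control library, 67 of the 80 nuclear subunits that reached 10 CPM were higher in erythroid-like cells than in each of the 6 other classes, against a background of 26.4% of 11528 genes. A difference of at least 2-fold over each of those classes was met by 12 of 80, against 10.3% of all genes. The median log2 ratio to the middle of the other classes was 1.15 for these subunits and -0.33 for all genes. Atp5b, the catalytic beta subunit of ATP synthase, was at 882 CPM in erythroid-like cells and between 249 and 451 CPM in the others. Cox5b, a complex IV subunit, was at 765 CPM against 187 to 275. Uqcrc1, a core protein of complex III, was at 364 CPM against 87.7 to 183.

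The 13 subunits that were not highest in erythroid-like cells included 3 of the 4 complex II genes (Sdha, Sdhc and Sdhd), Ndufa1, Ndufa7, Ndufa13, Ndufc1, Ndufs4, Ndufs5, Uqcrb and Cox7a2l. The remaining pair, Cox4i2 and Ndufa4l2, are isoforms described further on and were at 1.08 and 3.86 CPM there. Cox6b2, known as the testis isoform of a complex IV subunit, had the largest ratio, with 267 CPM in erythroid-like cells and 5.49 to 40.1 CPM in the other classes. The mutant erythroid-like group did not show the high level, with nuclear subunits at 1.79% of non-mitochondrial UMIs, and 20 of its 24 cells were above 5% mitochondrial.

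Between genotypes, the Sox9+Col2a1+ cells showed a higher mt-encoded level in the mutant and little net difference in the nuclear subunits. Nuclear subunits made up 1.29% of the non-mitochondrial RNA in control cells and 1.38% in mutant cells. The median log2 ratio of CPM, mutant over control, was 0.01 over the 80 nuclear subunits that reached 10 CPM in either library, and -0.20 over all 8332 genes above that floor. Of the 80, 41 were higher in the mutant and 39 lower, while 36.1% of all genes were higher. None was 2-fold higher (background 3.85%) and 1 was 2-fold lower (background 7.32%). Mt-encoded RNA rose from 2.62% to 3.92% of all UMIs, and the mt-encoded UMIs per nuclear UMI went from 2.08 to 2.96, a log2 ratio of 0.51. Of the 2 RNA quality genes compared, Neat1, a nuclear long RNA, was at 3477 CPM in the control and 1505 in the mutant (log2 ratio -1.21), and Malat1 at 32320 and 33503. The part of RNA quality in the mt-encoded difference was not tested. Over single cells, that number had a median of 2.14 in the control and 2.69 in the mutant.

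The mt-encoded difference was also computed in subsets of the Sox9+Col2a1+ cells. The mitochondrial percent is the sum of the same 13 genes, so a limit on it cuts the mt-encoded level itself, and the share of cells above the limit restates that level rather than adding to it. Of the Sox9+Col2a1+ cells, 75 control cells and 70 mutant cells were above 5% mitochondrial, or 7.40% (95% interval 5.87 to 9.19) and 20.9% (16.7 to 25.6). Restricted to cells at or below 5%, the log2 ratio of mt-encoded per nuclear UMIs between genotypes was 0.25 (938 control and 265 mutant cells). It was 0.35 among cells above 5%, 0.53 among the marked cells, which hold no globin UMI, and 0.51 among cells of at least 2000 UMIs. When each cell was given the same weight, it was 0.73. The nuclear median stayed between -0.01 and 0.18 under the same choices and the others tried. The direction of the mt-encoded ratio was the same in each of these settings.

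Of the 13 mt-encoded genes, 12 were higher in the mutant Sox9+Col2a1+ cells on the scale of CPM of all UMIs, with a median log2 ratio of 0.48. Mt-Cytb, the mt-encoded subunit of complex III, had the highest ratio, from 1862 CPM in the control to 4104 in the mutant (log2 ratio 1.14). Mt-Atp6, which forms part of the proton channel of ATP synthase, went from 3365 to 6277 CPM (0.90). Mt-Co2, a core subunit of complex IV, went from 2946 to 4850 CPM (0.72).

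The complex I genes lay between these and no difference. Mt-Nd4 went from 1546 to 2500 CPM (log2 ratio 0.69) and mt-Nd2 from 1751 to 2719 (0.63). Mt-Nd4l had a log2 ratio of 0.58, mt-Nd1 and mt-Nd3 of 0.48 each, and mt-Nd6, the only one of the 13 encoded on the other strand of the mitochondrial genome, of 0.20. Mt-Nd5 was almost level, at 952 and 1054 CPM (0.15). Among the other complex IV genes, mt-Co3 went from 4197 to 5820 CPM (0.47) and mt-Co1 from 5692 to 6917 CPM (0.28). Mt-Atp8, which helps to build the ATP synthase membrane part, was the exception, with 976 CPM in the control and 787 in the mutant (-0.31).

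The makeup of the mt-encoded RNA therefore differed between the libraries. Mt-Cytb was 7.10% of mt-encoded UMIs in control Sox9+Col2a1+ cells and 10.5% in mutant cells, while mt-Atp8 was 3.72% and 2.01% and mt-Co1 was 21.7% and 17.7%. The same shifts were seen in each of the other classes: in fibroblast-like cells mt-Cytb was 7.12% and 10.2%, and in osteoblast-like cells 8.27% and 13.2%. For mt-Atp8 the fibroblast-like cells gave 3.99% and 2.24%, and the osteoblast-like cells 4.04% and 2.05%. The makeup moved less across the 5% limit within a library, since mt-Cytb was 7.15% at or below it and 6.98% above it in control chondrocyte-like cells, and 10.0% and 10.4% in mutant ones. Mt-Atp8 (chrM:7766-7969) and mt-Atp6 (chrM:7927-8607) overlap and stay together on 1 mature RNA, as do mt-Nd4l and mt-Nd4. The values of such partners are therefore not levels of separate RNAs. How reads were assigned between them bears on these values and was not tested. A shift shared by all classes also cannot be told apart from a difference between the library preparations.

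**Figure D2:**
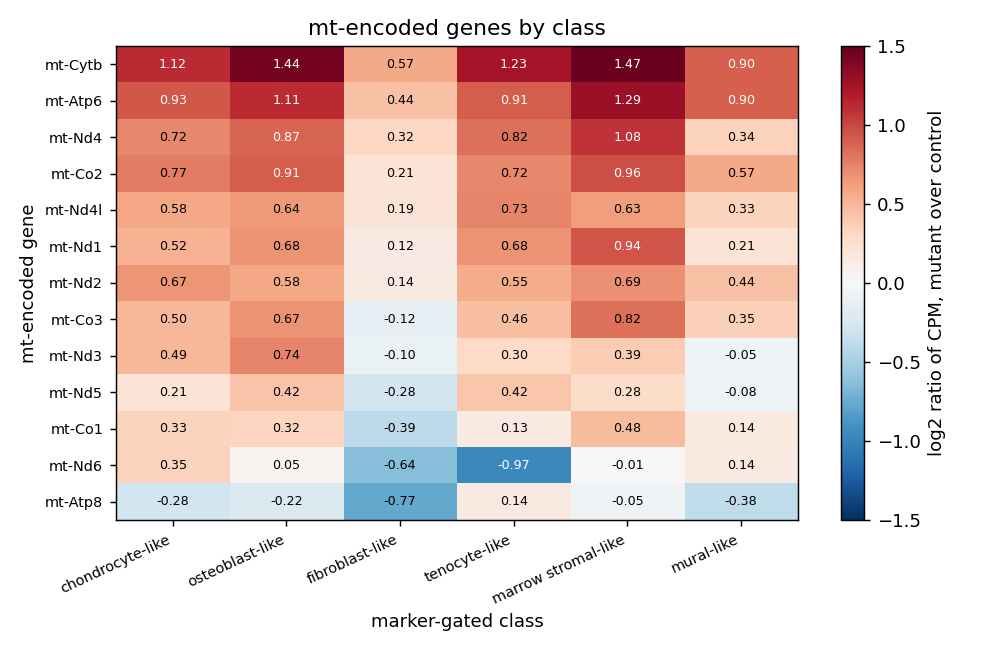
Log2 ratio of CPM of all UMIs, mutant over control, for the 13 mt-encoded genes (rows, ordered by their median) in 6 marker-gated classes (columns), with the value written in each cell. Red cells mark a higher level in the mutant and blue cells a lower one. Mt-Cytb and mt-Atp6 lead in each column, mt-Atp8 is below 0 in each column except the tenocyte-like cells (0.14), and the fibroblast-like column is the palest.

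Across classes, the mt-encoded per nuclear ratio was higher in the mutant in 5 of the 6. Its log2 ratio between genotypes was 0.74 in osteoblast-like cells (2.39 to 4.0 mt-encoded UMIs per nuclear UMI), 0.58 in marrow stromal-like (1.75 to 2.62), 0.53 in chondrocyte-like (2.18 to 3.14), 0.29 in tenocyte-like (2.17 to 2.66) and 0.21 in mural-like cells (1.94 to 2.25). Fibroblast-like cells went the other way, from 2.17 to 1.97, a log2 ratio of -0.14. Mt-Cytb, mt-Atp6, mt-Co2, mt-Nd1, mt-Nd2, mt-Nd4 and mt-Nd4l were higher in the mutant in all 6 classes, and mt-Atp8 was higher in 1. Stat3 in the same classes was at 144 CPM in the control and 96.5 in the mutant in chondrocyte-like cells, 161 and 132 in osteoblast-like, 108 and 93.7 in tenocyte-like, 184 and 168 in marrow stromal-like, 106 and 161 in fibroblast-like and 130 and 207 in mural-like cells.

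The share of cells above 5% mitochondrial is another summary of the same mt-encoded UMIs. It was 11.5% of control and 27.2% of mutant chondrocyte-like cells (intervals 9.75 to 13.4 and 22.8 to 32.1). Osteoblast-like cells gave 17.3% and 41.7%, tenocyte-like cells 11.6% and 34.9%, marrow stromal-like cells 4.55% and 38.1% and mural-like cells 21.0% and 52.8%. Fibroblast-like cells gave 6.06% and 6.15% (3.92 to 8.88 and 3.11 to 10.7). Cells that no marker set could place had the highest shares of the larger groups, 38.6% in the control and 54.8% in the mutant, with median depths of 1403 and 1241 UMIs.

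Among complexes, the nuclear genes of the Sox9+Col2a1+ cells moved little as groups, although single genes differed in both directions. The median log2 ratio between genotypes was -0.01 for the 36 nuclear subunits of complex I, -0.08 for the 4 of complex II, -0.05 for the 8 of complex III, 0.03 for the 15 of complex IV that reached 10 CPM and 0.06 for the 17 of complex V. The mt-encoded subunits of the same complexes had medians of 0.48 for complex I, 0.47 for complex IV and 0.29 for complex V. Of the 8 assembly factors of complex I, 5 reached the floor and 2 of these were higher, Ndufaf4 (0.47) and Ndufaf8 (0.37).

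**Figure D3:**
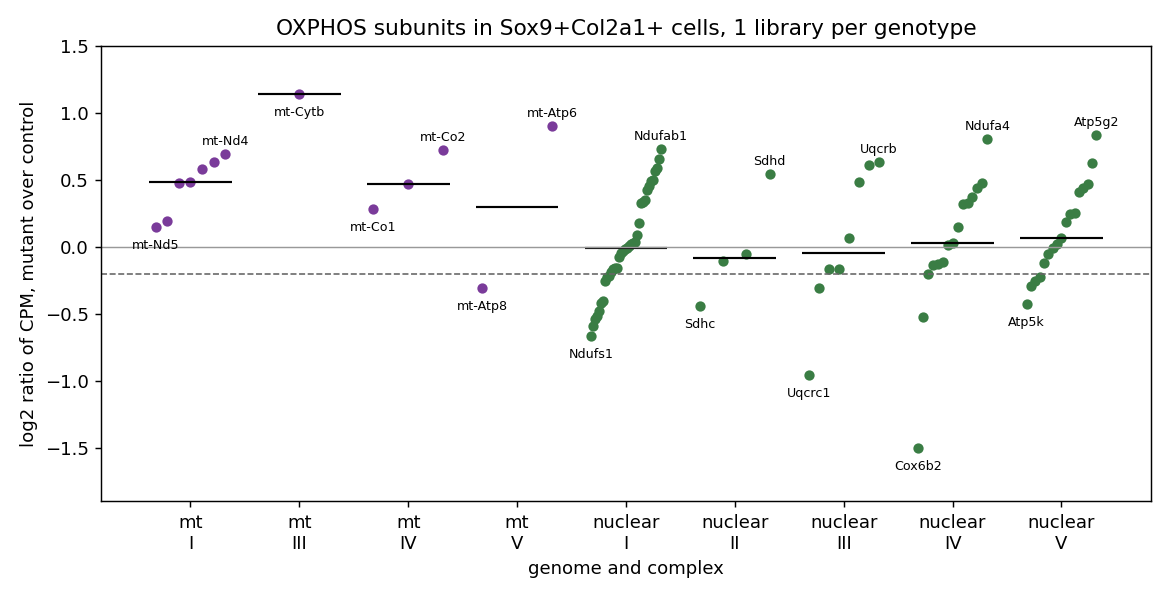
Log2 ratio of CPM, mutant over control, for each subunit that reached 10 CPM in Sox9+Col2a1+ cells, grouped by genome and complex. Each point is 1 gene, black bars are group medians, the solid line is 0, the dashed line is the median of all genes (-0.20), and the lowest and highest gene of each group is named. The purple mt-encoded points lie above 0 apart from mt-Atp8, and the green nuclear points spread around 0 in each complex.

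The nuclear complex I genes held both lower and higher members. Among the core subunits that carry electrons, Ndufs1 was at 30.5 CPM in the control and 18.8 in the mutant (log2 ratio -0.67), and Ndufv1 at 35.3 and 26.2 (-0.42). Among the accessory subunits, which surround the core, the lowest of those with a mean of at least 50 CPM were Ndufs6 (130 and 85.7 CPM, -0.60), Ndufb7 (99.7 and 68.3, -0.54) and Ndufa3 (109 and 76.1, -0.51). The highest were Ndufab1, the mitochondrial acyl carrier protein (60.5 and 101 CPM, 0.73), and Ndufc2 (65.2 and 103 CPM, 0.65). Each of these ratios rests on 56 to 685 estimated UMIs per library. All of these genes, the lower and the higher ones, were highest in control erythroid-like cells when set against the 6 other classes. The part of red cell RNA in their ratios was not tested.

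In complex II, which has no mt-encoded subunit, Sdha and Sdhb, the catalytic pair, were near level. Sdha was at 47.5 CPM in the control and 45.7 in the mutant, and Sdhb at 57.0 and 52.8. The membrane anchors differed in opposite directions, with Sdhc at 26.0 and 18.9 CPM (log2 ratio -0.44) and Sdhd at 15.9 and 23.6 (0.54).

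Complex III held the largest nuclear difference among members of at least 50 CPM. Uqcrc1 was at 87.9 CPM in the control (463 UMIs) and 44.7 in the mutant (132 UMIs), a log2 ratio of -0.96. It was detected in 32.3% of the control Sox9+Col2a1+ cells and 29.9% of the mutant ones, although the mutant cells were deeper. Its log2 ratio was negative in each of the 6 classes, from -1.58 in mural-like cells to -0.48 in marrow stromal-like cells. Uqcrc1 was at 364 CPM in control erythroid-like cells, and the part of red cell RNA in its ratios was not tested. In the same complex, Uqcrb was at 120 and 187 CPM (0.63), Uqcrh at 330 and 506 (0.61), and the iron-sulfur protein Uqcrfs1 at 37.9 and 53.5 (0.49).

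In complex IV, Ndufa4, a subunit first assigned to complex I, was at 149 CPM in the control and 261 in the mutant (log2 ratio 0.81), and Cox5a at 94.0 and 131 (0.48). Cox6a1 was lower, at 255 and 177 CPM (-0.52), and Cox4i1, the common isoform of a regulatory subunit, was at 507 and 441 (-0.20). Cox6b2 was the member that passed 2-fold, at 21.8 CPM in the control and 7.03 in the mutant (-1.51). Once cells with globin RNA were set aside, 501 control cells gave 10.3 CPM and 332 mutant cells 7.06 (-0.48), and its level in control erythroid-like cells was 267 CPM. The size of its ratio therefore moved with red cell RNA, whose part in it was not tested further. Cox6a1 and Ndufa4 were at 704 and 417 CPM in control erythroid-like cells, and the part of red cell RNA in their ratios was not tested. Cox6b1, the common isoform, was at 241 and 245 CPM.

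In complex V, Atp5g2 had the highest ratio of all nuclear members of at least 50 CPM, with 166 CPM in the control and 298 in the mutant (log2 ratio 0.84). Atp5g1, Atp5g2 and Atp5g3 encode the same mature ring subunit of the proton channel with different import sequences. Atp5g3 went from 89.3 to 138 CPM (0.62) and Atp5g1 from 220 to 262 (0.25). The catalytic head subunits Atp5a1 (286 and 244 CPM, -0.22) and Atp5b (275 and 230 CPM, -0.25) were lower, close to the median of all genes.

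In each of the 6 classes, the median of the nuclear subunits lay above the median of all genes. Their median log2 ratio between genotypes was 0.03 in chondrocyte-like, 0.05 in osteoblast-like, 0.20 in fibroblast-like, 0.23 in mural-like, 0.28 in tenocyte-like and 0.34 in marrow stromal-like cells, against -0.22 to -0.08 for all genes. They were higher in the mutant in 41 of 80 members in chondrocyte-like cells (background 34.4%), 43 of 79 in osteoblast-like (38.2%), 56 of 79 in fibroblast-like (40.8%), 65 of 80 in tenocyte-like (46.2%), 65 of 80 in marrow stromal-like (43.4%) and 55 of 80 in mural-like cells (47.0%). Of 78 subunits that reached the floor in all 6, 26 were higher in the mutant in every class, against 11.0% of 6633 genes, and 3 were lower in every class, against 19.1%.

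Those 26 included 6 of ATP synthase (Atp5e, Atp5g1, Atp5g2, Atp5g3, Atp5h and Atp5j), Cox5a, Cox6c, Cox7c and Cox8a of complex IV, and Uqcrb, Uqcrc2, Uqcrfs1 and Uqcrh of complex III. The others were complex I subunits, among them Ndufs3, Ndufa1, Ndufab1 and Ndufc2. The 3 that were lower in every class were Uqcrc1, Uqcr10 and Ndufa3. Uqcr10 was close to level in tenocyte-like cells. The classes come from the same 2 libraries, so a gene's sign in 6 classes is not 6 separate observations. Red cell RNA was also unequal between the libraries in each class. A globin UMI was found in 51.1% to 67.7% of control cells and 0% to 6.35% of mutant cells, by class. Its part in these signs was not tested.

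Other genes of the same organelle were compared in Sox9+Col2a1+ cells, where 36.1% of all genes were higher in the mutant and the median of all genes was -0.20, so most genes were lower in any case. Of 11 genes of the tricarboxylic acid cycle, which supplies the electrons, 10 were lower in the mutant and 1 was higher, with a median log2 ratio of -0.42. Cs, citrate synthase, was at 29.3 CPM in the control and 17.8 in the mutant. Of 7 genes of mitochondrial transcription and translation above the floor, 6 were lower and 1 was higher (median -0.41). Tufm, an elongation factor of mitochondrial translation, was at 27.2 and 10.0 CPM, and Lrpprc, which binds and stabilizes mt-encoded mRNA, at 21.5 and 13.7, while Tfam, which packages and transcribes the mitochondrial genome, was at 22.2 and 28.0.

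Of the carriers and channels of the mitochondrial membranes, 5 of 6 were higher (median 0.25), against 36.1% of all genes. Slc25a4 and Slc25a5, which exchange ADP for ATP, were at 265 and 336 CPM and at 116 and 158 CPM, whereas Vdac1, an outer membrane channel, was at 162 and 88.4. The 2 electron carriers were split, with Cycs, cytochrome c, at 85.4 and 113 CPM and Cyc1 at 58.2 and 46.8. Of 10 assembly genes outside the Nduf names that reached the floor, 4 were higher and 6 lower (median -0.14), a share near that of all genes. Among 5 regulators of mitochondrial biogenesis, 2 reached the floor and both were lower, as most genes were, Nrf1 (22.6 and 10.4 CPM) and Gabpa (26.7 and 20.5). Ppargc1a, a coactivator of these factors, had 5.86 UMIs against 1.0, too few to compare.

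The nuclear subunits were also compared across the 5% mitochondrial limit within each class and library. The mt-encoded genes cannot be tested on this limit because the deposited mitochondrial percent is their own sum. In control chondrocyte-like cells, nuclear subunits made up 1.30% of non-mitochondrial UMIs in 1079 cells at or below 5% and 1.10% in 140 cells above it. The median log2 ratio, above over at or below, was -0.26 over the 80 subunits and 0.21 over all genes, with 26 of the 80 higher against 60.7% of all genes. In mutant chondrocyte-like cells the levels were 1.39% in 267 cells and 1.33% in 100 cells, the median was -0.02 (0.0042 among cells of at least 1000 UMIs), and 37 of 79 were higher against 53.8% of all genes.

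The other classes differed in direction. A gene entered the background counts with at least 10 CPM on either side of the limit. Control cells above 5% summed to 61900 UMIs in osteoblast-like, 57628 in fibroblast-like and 24788 in mural-like cells. In sums of that size a single UMI exceeds the floor, so genes of low level could enter through that side. The part of this in the background shares was not tested. Osteoblast-like cells had the lowest values of the 6 classes, with a median of -0.40 in the control (19 of 79 higher, background 55.3%) and -0.80 in the mutant (6 of 79, background 48.8%). Control erythroid-like cells had a median of -0.55, with 1 of 78 higher, against 60.4% of all genes; that gene was Sdha, at 120 CPM at or below the limit and 156 above it. Mutant marrow stromal-like cells had a median of -0.23 (26 of 80, background 50.2%). In tenocyte-like cells the medians were 0.03 (-0.10 without cells that held a globin UMI) and 0.25 (45 of 80 in the control, background 56.1%, and 55 of 79 in the mutant, background 50.2%). Mural-like cells gave 0.06 and 0.32 (43 of 81, background 44.9%, and 59 of 80, background 46.7%), and fibroblast-like cells gave -0.02 and 0.08 (38 of 80, background 51.7%, and 42 of 79, background 47.4%). Few cells lay above the limit, with 13 control and 19 mutant mural-like, 24 and 11 fibroblast-like, and 38 and 22 tenocyte-like cells. Osteoblast-like cells numbered 23 and 43 there, and mutant marrow stromal-like cells 48. Above the limit, nuclear subunits summed to 509 UMIs in control mural-like, 603 in control osteoblast-like and 676 in control fibroblast-like cells.

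Depth also differed across the limit. Cells above 5% had a median depth of 0.285 times that of cells at or below 5% in control chondrocyte-like cells, 0.202 times in mutant chondrocyte-like cells and 0.327 times in control erythroid-like cells. The factor was 0.527 and 0.412 in control and mutant osteoblast-like cells and 0.342 in mutant marrow stromal-like cells. In the mutant it was 0.936 in fibroblast-like, 1.03 in mural-like and 1.14 in tenocyte-like cells, the 3 mutant groups whose nuclear median was above 0. In the control it was 0.581, 0.845 and 0.572 in the same order. The lowest factor, 0.202, stood beside a median of -0.02, and the lowest median of the 6 classes, -0.80, beside a factor of 0.412. Cells that no marker set could place had medians of -0.50 in the control (8 of 80 higher, background 50.4%) and -0.62 in the mutant (6 of 80, background 44.3%). The part of depth in these medians was not tested.

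The limit of 5% joined cells that differed in their nuclear level. In control chondrocyte-like cells, the nuclear share was 1.14% in cells at or below 1% mitochondrial and rose from 1.09% at 1 to 2% through 1.30% at 2 to 3% and 1.48% at 3 to 4% to 1.70% at 4 to 5%. It was 1.14% at 5 to 10% and 0.888% at 10 to 20%. Mutant chondrocyte-like cells were at 1.33% at 1 to 2% and rose from 1.23% at 2 to 3% to 1.60% at 4 to 5% and 1.63% at 5 to 10%, and were at 0.633% at 10 to 20% and 0.521% above 20%. From 2% to 5%, chondrocyte-like cells with more mt-encoded RNA thus also had more nuclear OXPHOS RNA in both libraries, and above 10% they had less than any group below the limit. Other classes differed. At 2 to 3%, 3 to 4% and 4 to 5%, control osteoblast-like cells were at 1.45%, 1.55% and 1.30%. Control tenocyte-like cells were at 1.42%, 1.60% and 1.49% in the same bins.

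In the same mutant cells, Malat1, a long RNA kept in the nucleus, was 3.45% of non-mitochondrial UMIs at 5 to 10%, 8.47% at 10 to 20% and 7.15% above 20%, and median depth fell from 3776 to 2039 and 1241 UMIs. Control erythroid-like cells showed no rise below 5%, with 3.13% at 1 to 2%, 3.16% at 2 to 3%, 3.12% at 3 to 4% and 2.89% at 4 to 5%, followed by 2.30% and 1.32% at 5 to 10% and 10 to 20%. With 10% as the limit in place of 5%, the median log2 ratio of the nuclear subunits was -0.69 in control and -1.25 in mutant chondrocyte-like cells.

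**Figure D4:**
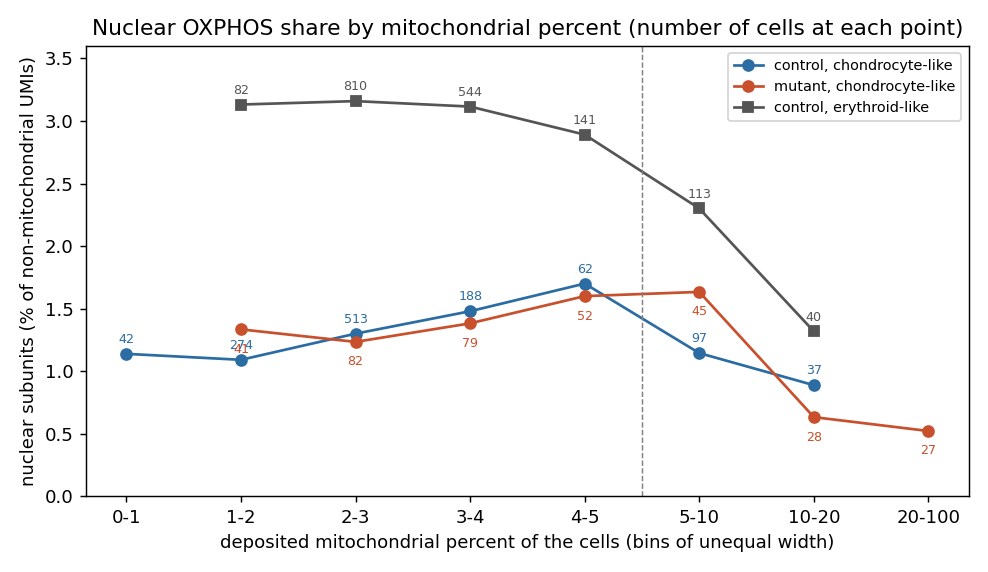
Nuclear subunits as a percent of non-mitochondrial UMIs (summed over cells) in bins of the deposited mitochondrial percent, for chondrocyte-like cells of both libraries and control erythroid-like cells. The number at each point is the count of cells, bins with under 20 cells are left out, the bins have unequal width and the dashed line marks 5%. Chondrocyte-like cells peak at 1.70% in the control (4 to 5% mitochondrial) and 1.63% in the mutant (5 to 10%) and fall beyond, while erythroid-like cells start above 3% and fall from 4% on.

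Some single members differed more than the group across the 5% limit. In control chondrocyte-like cells, Cox4i2 was at 141 CPM at or below the limit and 59.2 above it, and Ndufa4l2 at 277 and 123. The 140 cells above the limit held 253555 UMIs of all genes, so the levels there rest on few UMIs. This pair is given for the control only. Cox7a2l, which helps join complexes III and IV, was at 167 and 85.8 CPM, and at 185 and 88.7 in the mutant. Cox4i1 differed less between the sides, at 506 and 450 CPM in the control and 441 and 413 in the mutant.

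Isoforms of complex IV subunits marked cell classes. Cox4i2 (chr2:152754173-152765037) and Ndufa4l2 (chr10:127514967-127517154) are known as forms induced at low oxygen, beside the common Cox4i1 and Ndufa4. The share of Cox4i2 in the summed UMIs of Cox4i1 and Cox4i2 was 21.5% (interval 20.2 to 22.9) in control chondrocyte-like cells and 26.2% (24.1 to 28.4) in mutant ones. In mural-like cells it was 21.5% (14.9 to 30.1) and 29.7% (23.1 to 37.1). It was 4.75% and 0.45% in tenocyte-like, 2.64% and 5.02% in osteoblast-like, and 4.87% and 3.50% in marrow stromal-like cells. Fibroblast-like cells held 0.92 UMIs in the control and 0 of 661 in the mutant, which allows a share of up to 0.56% by the upper bound of its interval.

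Ndufa4l2 had a different range of classes. Its share in the UMIs of Ndufa4 and Ndufa4l2 was 86.2% in control and 90.0% in mutant mural-like cells, 74.3% and 56.2% in tenocyte-like cells, and 63.7% (61.8 to 65.6) and 50.4% (47.8 to 53.0) in chondrocyte-like cells. Fibroblast-like cells gave 21.5% and 20.2%, marrow stromal-like cells 12.6% (21.5% without control cells that held a globin UMI) and 3.78%, and osteoblast-like cells 9.51% and 4.49%. Control erythroid-like cells gave 0.92% (0.67 to 1.25) at 85.7% of cells with an Ndufa4 UMI. Tenocyte-like cells thus held much Ndufa4l2 and little Cox4i2, whereas chondrocyte-like and mural-like cells held both.

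The lower share of Ndufa4l2 in mutant chondrocyte-like cells went with a higher level of the common form. Ndufa4l2 itself was at 271 CPM in the control and 268 in the mutant, while Ndufa4 was at 154 and 263. For Cox4i2 in the same cells the levels were 138 and 156 CPM, with Cox4i1 at 504 and 438. A few cells carried much of the low Cox4i2 shares. In the control, the 3 highest cells held 41.2% of Cox4i2 UMIs in osteoblast-like, 46.7% in tenocyte-like and 43.8% in marrow stromal-like cells. The value in control chondrocyte-like cells was 4.07%, and in control mural-like cells it was 29.8% of 26.7 UMIs. In the mutant it was 49.0% in osteoblast-like, 58.6% in marrow stromal-like and 10.8% in chondrocyte-like cells. Mutant mural-like cells gave 38.1% of 52.1 UMIs. Mutant tenocyte-like cells held 0.88 Cox4i2 UMIs in all. Leaving out control cells with a globin UMI moved Cox4i2 to 24.3% and Ndufa4l2 to 65.8% in chondrocyte-like cells, and these to 8.77% and 79.2% in tenocyte-like cells.

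**Figure D5:**
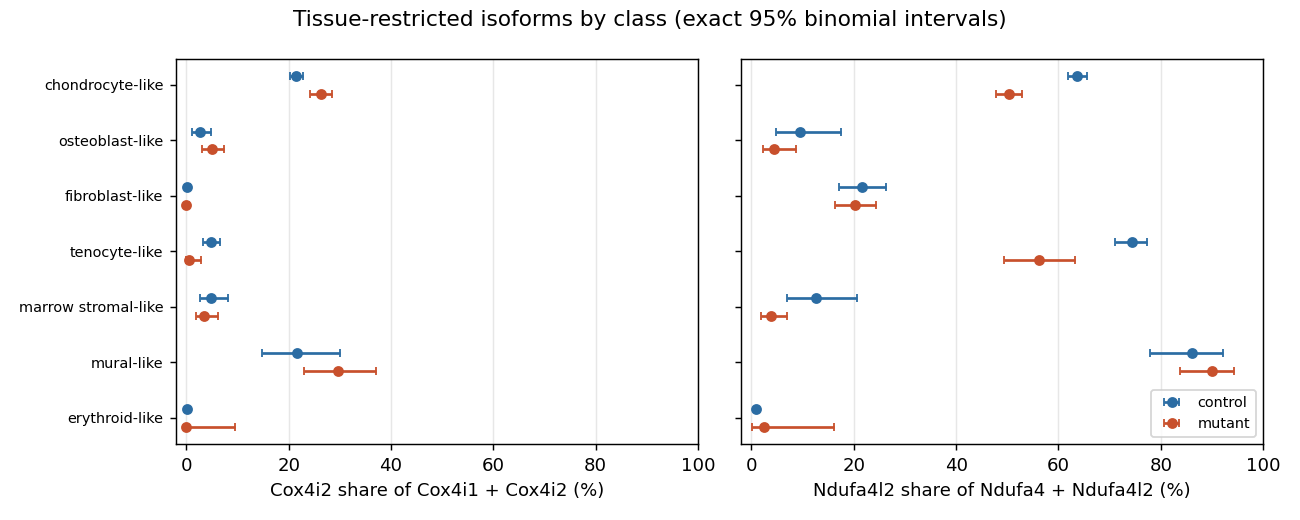
Share of Cox4i2 among Cox4i1 and Cox4i2 UMIs (left) and of Ndufa4l2 among Ndufa4 and Ndufa4l2 UMIs (right), in percent, by class and library, with exact 95% binomial intervals of the rounded UMIs. Cox4i2 is above 20% in chondrocyte-like and mural-like cells and below 6% elsewhere, and Ndufa4l2 is above 50% in mural-like, tenocyte-like and chondrocyte-like cells.

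The isoforms known from heart and skeletal muscle were at or near 0. Cox6a2 reached 3.0 UMIs at most in a class, in control chondrocyte-like cells, and Cox8b 6.98 UMIs, in control fibroblast-like cells. Cox7a1 reached 12.9 UMIs in control fibroblast-like cells, where it was 3.79% of Cox7a1 and Cox7a2 UMIs (2.04 to 6.41). The 22 muscle-like cells held 0 UMIs of each, beside 23.8 UMIs of Cox6a1, 29.8 of Cox7a2 and 96.3 of Cox8a, which is a small depth for saying that they lack these forms. Cox7b2 and Cox8c, known as testis isoforms, had 1.0 and 4.0 UMIs in the whole mutant library, and 0 and 3.90 in the control. The common forms Cox7a2 (256 and 322 CPM), Cox7b (212 and 193), Cox7a2l (164 and 166) and Cox8a (401 and 500) were present in Sox9+Col2a1+ cells of both libraries.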

How the data were processed

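Both tables list cells in rows, with 9 columns that describe the cell and 32245 that each hold a gene. In the gene columns the authors deposited log2(CPM + 1). The total per cell is an estimated count that the authors deposited after removing ambient RNA with SoupX, and it is not whole. The authors give mitochondrial and ribosomal RNA as a percent of that total, and the number of expressed genes as a score per cell. Reads were processed by the authors in Partek Flow, with STAR 2.7.3a on mm10, UMI deduplication and Gencode counting, per their methods. The methods also describe a batch correction that used expressed genes and the mitochondrial percent. Whether the deposited values carry that correction is not stated there, and it bears on mt-encoded levels between the libraries. The cell numbers given there also differ from those used here. Those methods also name limits on mitochondrial percent and on counts, but the tables hold cells above 5%, and all cells were used here.

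Estimated UMIs were computed as (2 to the power of the value, minus 1) times the cell's total over 1000000, and 74.9% of control and 97.3% of mutant values lay within 0.1 of a whole number. The deposited mitochondrial percent equalled the sum of the 13 mt-encoded genes to within 0.00103 points. UMIs were summed over the chosen cells of each library. Nuclear genes were scaled to CPM of non-mitochondrial UMIs and mt-encoded genes to CPM of all UMIs, so their levels are on different scales. Levels were compared between groups and not between genes. The log2 ratio used a pseudocount of 1 CPM, for genes with at least 10 CPM on either side. Counts of all genes above the same floor serve as background.

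A cell belonged to 1 of 11 classes when at least 3 of its 8 markers were above 0 and it had more of them than of any other class. Classes needed 20 cells, and each side of the 5% limit needed 10. No doublet caller was run. Named genes were the mt-encoded subunits, the isoform families, the core subunits, and nuclear members with the 5 highest and the 5 lowest log2 ratios, out of those with a mean of at least 50 CPM in Sox9+Col2a1+ cells. Other genes were named after their values were seen. Some genes of these lists are counted but not reported by name here. The members and lists were chosen with earlier results of these data known. The ratios were tested on simulated data for the Sox9+Col2a1+ comparison (19376 genes, 200 changed). There, 100% of the changed genes had the right sign and 100% came within 0.5 of the simulated log2 ratio. The changed genes were drawn from those of at least 100 CPM, were set to 2-fold changes and carried counting error only. The simulation therefore checks the calculation. It cannot speak for genes at lower CPM or for differences between animals or library preparations. Gene coordinates are from Gencode M21 on GRCm38, and start windows from RefSeq on GRCm38.p6. Python 3.11.15, numpy 2.4.6, pandas 2.3.3, scipy 1.17.1 and matplotlib 3.10.9 were used.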

Additional observations from a re-analysis of the deposited data

Results flagged for a closer look

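Across the 5% mitochondrial limit, 2 classes had medians below 0 in both libraries and 2 had medians above 0 in both. The median log2 ratio of the nuclear subunits, cells above 5% over cells at or below it, was -0.256 in control and -0.0158 in mutant chondrocyte-like cells, and -0.398 and -0.803 in osteoblast-like cells. It was 0.0265 and 0.250 in tenocyte-like cells, and 0.0576 and 0.321 in mural-like cells. Fibroblast-like cells had opposite signs, -0.0250 in the control and 0.0794 in the mutant. The sign of the values near 0 was not stable: control tenocyte-like cells were at -0.103 without globin cells and mutant chondrocyte-like cells at 0.00415 with at least 1000 UMIs, so no direction is read from either. Cells above the limit were few in some groups, 13 in control mural-like and 11 in mutant fibroblast-like cells. The difference between these classes was not tested.

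Between genotypes, the fibroblast-like cells differed in sign. Their log2 ratio of mt-encoded per nuclear UMIs was -0.137, against positive values in the 5 other classes compared. The difference was not tested.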

How the results depend on the processing

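With 1 library per genotype, no replicate could be left out and nothing below measures biological error. For the same reason, no paired analysis was possible. A log2 value was counted as moved when it changed by at least 0.2, and a share when it left its binomial interval. Some values close to 0 changed sign without moving. The nuclear median between genotypes in Sox9+Col2a1+ cells stayed within 0.2 in all 14 alternatives tried (-0.00909 to 0.178), against 0.0100 as reported, and was below 0 with cells weighted equally (-0.00885) and with all UMIs as the total (-0.00909). Across the 5% limit, control tenocyte-like cells (0.0265) went to -0.0254 with all UMIs as the total and -0.103 without globin cells, control fibroblast-like cells (-0.0250) to 0.00941 and mutant chondrocyte-like cells (-0.0158) to 0.00415 with at least 1000 UMIs. The mt-encoded per nuclear log2 ratio was 0.505, and it moved to 0.250 with cells at or below 5% and to 0.728 with cells weighted equally. The mt-encoded median was 0.482, with 0.235 and 0.752 under the same 2 choices. Across the mitochondrial limit, 10% in place of 5% gave -0.686 in control chondrocyte-like, -1.26 in control erythroid-like, -1.25 in mutant chondrocyte-like, -1.85 in mutant osteoblast-like, -1.43 in mutant marrow stromal-like and -0.869 in mutant unplaced cells. Scaling to all UMIs gave -0.861 in mutant unplaced cells. Leaving out cells with a globin UMI, chosen after seeing the data, gave -0.217 in control unplaced cells. The same cells left out in the control moved Cox4i2 shares to 24.3% in chondrocyte-like, 8.77% in tenocyte-like and 0% in fibroblast-like cells, and Ndufa4l2 shares to 65.8%, 79.2% and, in marrow stromal-like cells, 21.5%. Asking for 4 markers moved Ndufa4l2 in mutant fibroblast-like cells to 24.3%, and the share of cells above 5% to 9.06% in control chondrocyte-like and 6.19% in control erythroid-like cells. Asking for 1000 UMIs moved that share to 9.10% in control chondrocyte-like, 32.4% in control unplaced and 46.0% in mutant unplaced cells. The cause of these moves was not tested.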
